A study of Mus musculus with 9 samples.

Results

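The 10 genes described here mark the subsets of dendritic cells, and were found by symbol in a table of 45706 genes measured in mouse lung. They are Xcr1, Clec9a, Batf3 and Itgae for conventional dendritic cells of type 1, Cd209a for those of type 2, Flt3 and Zbtb46 for the conventional lineage as a whole, Siglech for plasmacytoid cells, and Ccr7 and Fscn1 for migratory cells. Every gene had a single row with a value above 0 in each of the 9 libraries, and 9 of the 10 were among the 13248 genes that reached 1 TPM in at least 3 libraries and were tested. The exception was Xcr1, which lay between 0.164 and 0.764 TPM. TPM is a transcript abundance corrected for transcript length, with the same total in each library.

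The lungs were from BALB/c females of 4 to 6 weeks, into whose right flank cells of the mouse mammary carcinoma line 4T1 had been injected. Of the 3 groups, the first received nanocapsules of an antibody against PD1, the second the antibody itself, and the third phosphate-buffered saline (PBS), on days 7 and 14, and lungs were taken on day 21. The labels give 150 µg per mouse for the nanocapsules, in wording that can be read as covering the nanocapsules alone or both antibody forms. Each group had 3 lungs, all from mice given 4T1 cells, so no lung of a mouse without them enters the comparisons. The labels do not say which animal each lung came from, and the p-values therefore reflect only how these samples spread, which may be technical.

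Dendritic cells take up antigen in tissues, carry it to lymph nodes and present it to T cells. The type 1 subset, which depends on the transcription factors IRF8 and BATF3, is specialised in presenting antigen from dead cells to CD8 T cells. The type 2 subset mainly primes CD4 T cells, plasmacytoid cells are the main source of type I interferon in viral infection, and cells that mature and leave the tissue switch on the chemokine receptor CCR7. PD1 is an inhibitory receptor of T cells, and one of its ligands, PD-L1, is found on dendritic cells. The study asked about possible immune-related adverse effects of the 2 antibody forms in the lung.

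The libraries were broadly alike, with Spearman correlations of 0.973 to 0.982 within groups and 0.950 to 0.981 between groups. Neutrophil transcripts were abundant, and S100a8 and S100a9 together took 15.5% to 17.5% of the TPM in nanocapsule-treated lungs, 10.3% to 12.0% in anti-PD1-treated lungs and 12.1% to 16.7% in PBS-treated lungs. Immature thymocyte genes stood apart in single libraries. Their summed level was 134 TPM in anti-PD1 3, 53.7 TPM in PBS 3 and 36.5 TPM in nanocapsule 2, the highest of each group, and between 16.1 and 39.2 TPM in the other 6 libraries. Rag1, which cuts antigen receptor genes in developing lymphocytes, was at 28.3, 8.62 and 4.72 TPM in these 3 libraries. The results were therefore also computed without these 3 libraries, a choice made after the data were seen. Below they are called high in thymocyte genes, which means the highest within their group. Anti-PD1 1, at 39.2 TPM, was kept although it lay above nanocapsule 2. Nanocapsule 2 was also the library with the lowest value of 6 of the 10 genes.

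The stretches of 250 bases before the RefSeq start of Siglech, Clec9a and Xcr1 are shown to set the sequence next to the start of a plasmacytoid marker and of 2 type 1 markers beside their levels. The Siglech window reaches 6 bases into the GENCODE gene, and the other two end before their own gene, that of Clec9a within an exon of a retained-intron transcript of Clec1b. The window of Batf3 lies inside its GENCODE gene, with 163 of 250 bases in annotated exons, and is not shown. The sequences come from RefSeq on GRCm38.p6 and read 5′ to 3′ on the strand of the gene. The windows are chr7:55767934-55768183 on the plus strand for Siglech, chr6:129408612-129408861 on the plus strand for Clec9a and chr9:123862030-123862279 on the minus strand for Xcr1. Capitals mark matches to 5 motifs searched on both strands.
Siglech: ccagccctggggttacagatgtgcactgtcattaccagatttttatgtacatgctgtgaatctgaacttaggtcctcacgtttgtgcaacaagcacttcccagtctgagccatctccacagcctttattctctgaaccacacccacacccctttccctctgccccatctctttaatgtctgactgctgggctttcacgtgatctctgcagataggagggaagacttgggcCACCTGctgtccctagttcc
Clec9a: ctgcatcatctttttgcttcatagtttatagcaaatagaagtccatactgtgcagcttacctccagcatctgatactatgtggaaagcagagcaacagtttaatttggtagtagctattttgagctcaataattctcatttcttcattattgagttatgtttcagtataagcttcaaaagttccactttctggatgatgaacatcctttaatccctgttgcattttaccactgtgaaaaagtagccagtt
Xcr1: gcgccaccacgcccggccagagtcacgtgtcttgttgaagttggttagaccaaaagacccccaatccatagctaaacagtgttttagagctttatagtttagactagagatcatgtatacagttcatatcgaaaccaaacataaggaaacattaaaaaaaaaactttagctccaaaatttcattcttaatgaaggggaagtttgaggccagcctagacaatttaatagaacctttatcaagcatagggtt

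The motifs were the PU-box GAGGAA, the AP-1 site TGANTCA, the E-box CAGGTG, an interferon-response type element of GAAA and GAAA with 2 free bases between them, and an NF-κB type site of GGG and TTTCC with 2 free bases between them. No matches overlapped. Siglech held 1 match to the E-box form CAGGTG, which was found in 17.2% of 32851 windows of the same length. Other E-box forms were not searched. None of the 5 motifs was found in the windows of Clec9a and Xcr1. The PU-box letters stood in 23.3% of all windows, the AP-1 letters in 6.75%, the interferon-response type letters in 2.98% and the NF-κB type letters in 1.41%. The windows also differed in composition. That of Siglech was 50.8% G and C with 2 CpG dinucleotides, that of Clec9a 35.6% with 0 and that of Xcr1 38.8% with 5, against a median of 52.4% and 6 over all windows. A match describes letters and shows no binding.

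Over the 9 tested genes, no difference between groups passed limma at an adjusted p under 0.05, in any of the 3 comparisons. Among all 13248 tested genes, limma called 0.106% for nanocapsule against anti-PD1, 0.00755% for nanocapsule against PBS and 0.00755% for anti-PD1 against PBS. For nanocapsule against anti-PD1, 3 of the 9 (Itgae, Zbtb46 and Fscn1) were lower at an unadjusted p under 0.05 and none was higher, where 27.7% of all tested genes passed, 21.0% lower and 6.69% higher. For nanocapsule against PBS, Batf3 was higher and Siglech and Ccr7 were lower at that level, where 10.1% of all genes passed, 1.22% higher and 8.92% lower. For anti-PD1 against PBS, Zbtb46 alone passed and was higher, where 16.5% of all genes passed, 8.48% higher and 8.06% lower. Groups without overlap were found for 4 of the 9 in the first comparison, all lower (24.6% of all genes lower and 8.73% higher), for 2 lower and 1 higher in the second (11.9% and 2.4%) and for 1 higher in the third (12.1% higher and 13.4% lower). None of the 9 was called in any fit that left out 1 library, while the number of called genes over the whole table was between 0 (without nanocapsule 2, anti-PD1 1 or anti-PD1 2) and 960 (without PBS 2) for nanocapsule against anti-PD1. The comparisons share groups of lungs, so their values are not independent of each other.

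By value, 8 of the 9 tested genes were lower in nanocapsule-treated lungs than in anti-PD1-treated lungs, with a median log2 difference of -0.51, and Batf3 was higher. Over all tested genes, 70.8% were lower and 29.2% higher in the same comparison, with a median of -0.17. Against PBS-treated lungs, 8 of 9 were again lower in nanocapsule-treated lungs, with a median of -0.31, beside 71.2% lower, 28.8% higher and -0.11 over all genes. Without PBS 3 this became 6 of 9 with a median of -0.14, without nanocapsule 2 it became 5 of 9 with -0.08, and without the 3 libraries high in thymocyte genes it became 4 of 9 with 0.01. In anti-PD1-treated lungs, 7 of 9 were higher than in PBS-treated lungs, with a median of 0.14, beside 56.9% higher, 43.1% lower and 0.04 over all genes. The median of the 9 was 0.31 without anti-PD1 1, 0.22 without anti-PD1 3, 0.24 without PBS 1 and 0.06 without PBS 2, and 9 of 9 were higher without PBS 3 (median 0.20) and without the 3 libraries high in thymocyte genes (median 0.29). In bulk lung RNA, fewer cells of a type and less RNA per cell cannot be told apart.

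**Figure D1:**
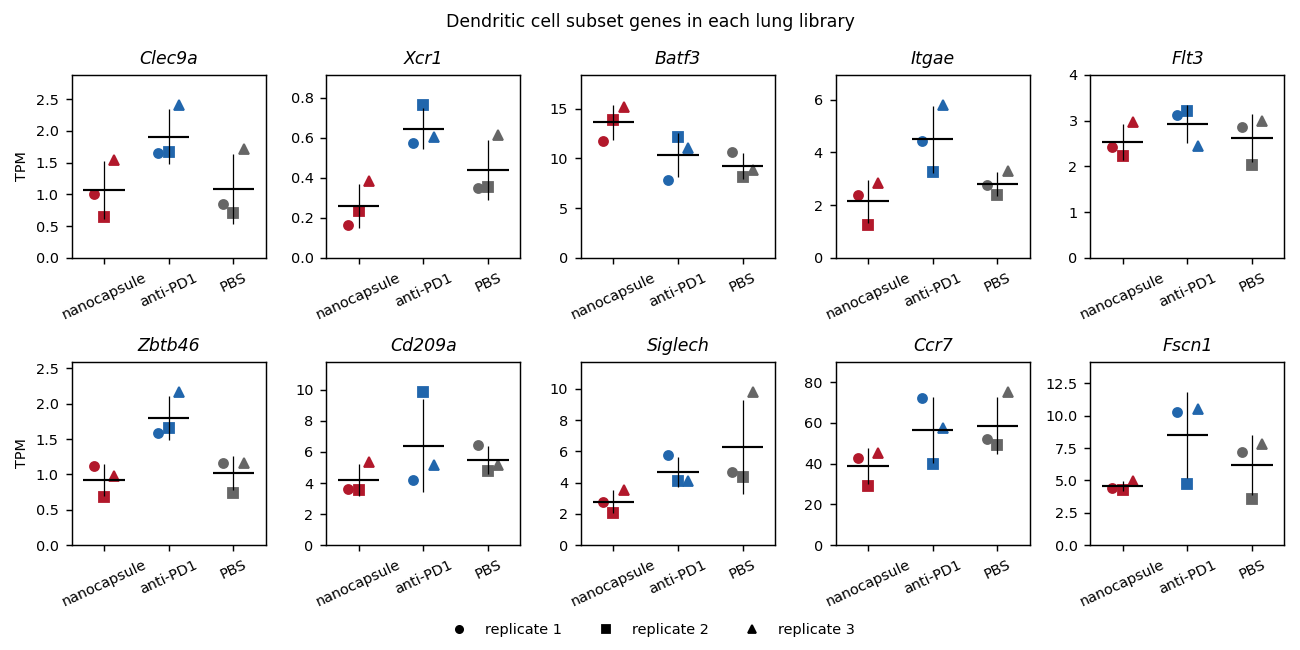
TPM of the 10 dendritic cell subset genes in each library, from an axis that starts at 0. Columns are the nanocapsule, anti-PD1 and PBS lungs, markers show replicates 1 to 3, horizontal lines the group means and vertical lines 1 SD (n = 3). Batf3 has its highest mean in nanocapsule-treated lungs, at 11.7 to 15.2 TPM, and Zbtb46 and Xcr1 of nanocapsule-treated lungs lie below every anti-PD1 lung.

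**Figure D2:**
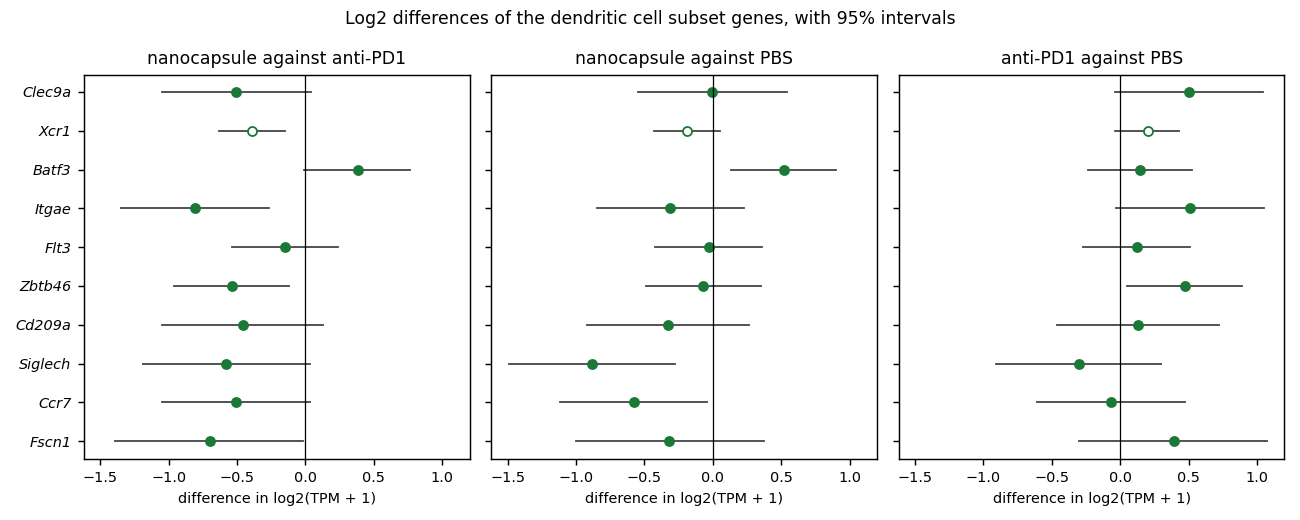
Differences in log2(TPM + 1) for the 3 comparisons, with 95% intervals from limma. The open circle, Xcr1, comes from a fit without a filter on low values. Batf3 lies to the right of 0 in all 3 panels, and no difference passed an adjusted p of 0.05.

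Among the type 1 markers, Clec9a encodes a receptor for exposed actin filaments of dead cells. Its level was 1.01, 0.645 and 1.55 TPM in nanocapsule-treated lungs, 1.65, 1.67 and 2.41 TPM in anti-PD1-treated lungs and 0.842, 0.708 and 1.72 TPM in PBS-treated lungs. The nanocapsule-treated lungs all lay below anti-PD1-treated lungs, while both overlapped PBS-treated lungs, anti-PD1-treated lungs through PBS 3 alone. The log2 difference was -0.51 (SE 0.24, limma adjusted p = 0.205) for nanocapsule against anti-PD1 and 0.50 (SE 0.24, limma adjusted p = 0.332) for anti-PD1 against PBS. For nanocapsule against PBS it was -0.01 with a 95% interval of -0.55 to 0.54, and it was 0.20 without PBS 3 and 0.15 without nanocapsule 2. Clec9a shares part of its locus on chromosome 6 with Clec1b on the same strand, a receptor of platelets, which averaged 3.003 ± 0.487 TPM in nanocapsule-treated lungs, 5.86 ± 2.87 TPM in anti-PD1-treated lungs and 3.86 ± 1.67 TPM in PBS-treated lungs (SD, n = 3). The 2 genes share 184 of the 3293 exonic bases of Clec9a, and how reads of the shared part were divided is not given in the sources used here, so the Clec9a level is uncertain to that extent.

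Xcr1, the chemokine receptor that defines type 1 cells and binds XCL1 from T and NK cells, was the least abundant of the 10 genes. It stood at 0.164, 0.233 and 0.383 TPM in nanocapsule-treated lungs, 0.572, 0.764 and 0.602 TPM in anti-PD1-treated lungs and 0.351, 0.356 and 0.614 TPM in PBS-treated lungs. All nanocapsule lungs lay below all anti-PD1 lungs, and PBS-treated lungs lay between them with overlap on both sides. In the fit without a filter, over 23474 genes, the log2 difference for nanocapsule against anti-PD1 was -0.39 (SE 0.10, limma adjusted p = 0.160), and on this scale the change of so low a gene is understated. The ratio of mean TPM was 0.402. Xcl1, the ligand gene, was at 2.28, 3.78 and 2.82 TPM in nanocapsule-treated lungs, 5.59, 4.03 and 8.77 TPM in anti-PD1-treated lungs and 4.20, 1.81 and 6.22 TPM in PBS-treated lungs. As with its receptor, every nanocapsule value of Xcl1 lay below every anti-PD1 value.

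Batf3, which encodes a leucine zipper factor required for type 1 cells, was the exception in direction. Its level was 11.7, 13.9 and 15.2 TPM in nanocapsule-treated lungs, 7.86, 12.1 and 11.03 TPM in anti-PD1-treated lungs and 10.7, 8.14 and 8.81 TPM in PBS-treated lungs. The nanocapsule-treated lungs were all above PBS-treated lungs, and overlapped anti-PD1-treated lungs only through nanocapsule 1 and anti-PD1 2. On the log2 scale the gene differed by 0.52 (SE 0.17, 95% interval 0.13 to 0.90, limma adjusted p = 0.400) for nanocapsule against PBS, and this difference lay between 0.44 and 0.62 with single libraries left out. For nanocapsule against anti-PD1 it was 0.38 (SE 0.17, limma adjusted p = 0.185), and for anti-PD1 against PBS 0.14 (SE 0.17, limma adjusted p = 0.721). Both nanocapsule differences stayed above 0 under every alternative computed. The lists of neutrophil genes and of monocyte and interstitial macrophage genes also had higher medians in nanocapsule-treated lungs than in anti-PD1-treated lungs, by 0.70 and 0.25 on the log2 scale. For nanocapsule against PBS these medians were 0.18 and -0.05, and their part in the Batf3 values was not tested.

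Itgae encodes CD103, the integrin chain that binds E-cadherin, which marks type 1 cells of the lung and also T cells that reside in epithelia. It was at 2.38, 1.24 and 2.82 TPM in nanocapsule-treated lungs, 4.44, 3.25 and 5.79 TPM in anti-PD1-treated lungs and 2.77, 2.38 and 3.29 TPM in PBS-treated lungs. Every nanocapsule lung lay below every anti-PD1 lung, and the lowest anti-PD1 lung lay just under the highest PBS lung. The log2 difference for nanocapsule against anti-PD1, -0.81 (SE 0.24, 95% interval -1.35 to -0.27, limma adjusted p = 0.0918), was the largest in size of the 9 tested genes in that comparison. It was -0.31 (SE 0.24, limma adjusted p = 0.675) for nanocapsule against PBS and 0.51 (SE 0.24, limma adjusted p = 0.321) for anti-PD1 against PBS. T cell genes had the same direction by value, with 12 of 12 lower for nanocapsule against anti-PD1, beside 70.8% of all genes. The summed level of the T cell genes was 328 to 376 TPM, against 422 to 975 TPM. Their part in the Itgae values was not tested. On the opposite strand, the span of Itgae holds the gene listed as Gsg2, a histone kinase now named Haspin, which averaged 1.88 ± 0.387 TPM in nanocapsule-treated lungs, 2.30 ± 0.272 TPM in anti-PD1-treated lungs and 2.17 ± 0.259 TPM in PBS-treated lungs (SD, n = 3). The 2 genes share 0 exonic bases in GENCODE.

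Of the genes of the whole conventional lineage, Flt3 encodes the receptor of the growth factor that drives dendritic cell development. It varied least between groups, at 2.42, 2.23 and 2.98 TPM in nanocapsule-treated lungs, 3.13, 3.20 and 2.45 TPM in anti-PD1-treated lungs and 2.85, 2.03 and 2.99 TPM in PBS-treated lungs. All 3 groups overlapped. The 95% intervals of its log2 difference were -0.54 to 0.24 for nanocapsule against anti-PD1, -0.42 to 0.36 for nanocapsule against PBS and -0.27 to 0.51 for anti-PD1 against PBS. The ligand gene Flt3l was lower by value in nanocapsule-treated lungs, at 18.6, 13.3 and 12.9 TPM, against 24.2, 21.5 and 19.6 TPM in anti-PD1-treated lungs and 19.4, 22.5 and 26.9 TPM in PBS-treated lungs. Its nanocapsule lungs did not overlap either other group. The log2 difference of Flt3l was -0.53 (SE 0.16, limma adjusted p = 0.0995) from anti-PD1-treated lungs and -0.59 (SE 0.16, limma adjusted p = 0.365) from PBS-treated lungs.

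Zbtb46 encodes a transcription factor of conventional dendritic cells that is also active in endothelial cells. Its level was 1.12, 0.680 and 0.978 TPM in nanocapsule-treated lungs, 1.59, 1.65 and 2.16 TPM in anti-PD1-treated lungs and 1.16, 0.741 and 1.16 TPM in PBS-treated lungs. The anti-PD1-treated lungs lay above both other groups without overlap, and the nanocapsule and PBS lungs overlapped. The log2 difference was -0.54 (SE 0.19, limma adjusted p = 0.118) for nanocapsule against anti-PD1, 0.47 (SE 0.19, limma adjusted p = 0.263) for anti-PD1 against PBS and -0.07 (SE 0.19, limma adjusted p = 0.919) for nanocapsule against PBS. All 8 endothelial genes were higher in anti-PD1-treated lungs than in PBS-treated lungs, with a median log2 difference of 1.19, beside 56.9% of all genes. All 8 were lower in nanocapsule-treated lungs than in anti-PD1-treated lungs, with a median of -1.19, beside 70.8% of all genes. Their summed level was 30.0 to 74.3 TPM in nanocapsule-treated lungs, 102 to 190 TPM in anti-PD1-treated lungs and 31.8 to 81.1 TPM in PBS-treated lungs, and their part in the Zbtb46 values was not tested.

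Cd209a, the gene of a C-type lectin of type 2 and monocyte-derived dendritic cells, had its highest value in 1 library. It was at 3.62, 3.56 and 5.35 TPM in nanocapsule-treated lungs, 4.21, 9.82 and 5.18 TPM in anti-PD1-treated lungs and 6.47, 4.76 and 5.18 TPM in PBS-treated lungs. All 3 groups overlapped. On the log2 scale the gene differed by -0.46 (SE 0.26, limma adjusted p = 0.269) for nanocapsule against anti-PD1, -0.33 (SE 0.26, limma adjusted p = 0.676) for nanocapsule against PBS and 0.13 (SE 0.26, limma adjusted p = 0.845) for anti-PD1 against PBS. Without anti-PD1 2, the first was -0.15 and the last was -0.18. The gene lies on chromosome 8 in a family of related CD209 genes, and how reads that fit several of them were assigned is not given in the sources used here.

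Siglech encodes a receptor of the Siglec family on mouse plasmacytoid dendritic cells. It was at 2.76, 2.09 and 3.53 TPM in nanocapsule-treated lungs, 5.77, 4.11 and 4.09 TPM in anti-PD1-treated lungs and 4.66, 4.39 and 9.77 TPM in PBS-treated lungs. The nanocapsule-treated lungs lay below both other groups without overlap, and PBS 3 was far above the rest. The log2 difference was -0.58 (SE 0.27, limma adjusted p = 0.195) for nanocapsule against anti-PD1 and -0.88 (SE 0.27, 95% interval -1.49 to -0.28, limma adjusted p = 0.365) for nanocapsule against PBS. Against PBS it was -0.56 without PBS 3. For anti-PD1 against PBS the difference was -0.30 (SE 0.27, limma adjusted p = 0.608), and it was 0.02 without PBS 3.

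Ccr7, the receptor that leads migratory dendritic cells to lymph nodes, was the most abundant of the 10 genes and made up between 49.2% and 64.6% of their summed level in each library. It is also a receptor of naive T cells and of B cells. Its level was 42.9, 29.0 and 45.1 TPM in nanocapsule-treated lungs, 72.0, 40.0 and 57.6 TPM in anti-PD1-treated lungs and 52.0, 49.3 and 75.0 TPM in PBS-treated lungs. The nanocapsule-treated lungs all lay below PBS-treated lungs and overlapped anti-PD1-treated lungs through anti-PD1 2. On the log2 scale the gene differed by -0.58 (SE 0.24, limma adjusted p = 0.467) for nanocapsule against PBS and -0.51 (SE 0.24, limma adjusted p = 0.197) for nanocapsule against anti-PD1. For anti-PD1 against PBS it was -0.07, with a 95% interval of -0.61 to 0.47, and it was 0.16 without anti-PD1 2 and 0.12 without PBS 3. B cell genes had the same direction by value. Against anti-PD1, 9 of 9 were lower in nanocapsule-treated lungs, beside 70.8% of all genes, and against PBS 9 of 9, beside 71.2%. Their summed level was 200 to 279 TPM in nanocapsule-treated lungs, 346 to 591 TPM in anti-PD1-treated lungs and 339 to 639 TPM in PBS-treated lungs. That of the T cell list was 328 to 376 TPM, 422 to 975 TPM and 409 to 787 TPM in the same groups, and the part of either list in the Ccr7 values was not tested.

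Of the ligands of CCR7, Ccl21a was at 7.79, 2.76 and 5.14 TPM in nanocapsule-treated lungs, 6.77, 17.0 and 15.0 TPM in anti-PD1-treated lungs and 5.46, 3.36 and 7.81 TPM in PBS-treated lungs. Its log2 difference was -1.15 (SE 0.39, limma adjusted p = 0.113) for nanocapsule against anti-PD1. The groups overlapped in every comparison. Near-identical copies of Ccl21 exist in the mouse genome, so this level is uncertain.

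Fscn1 encodes fascin, the actin-bundling protein of dendrites in mature dendritic cells, which is also made in many carcinomas. It was at 4.43, 4.27 and 4.98 TPM in nanocapsule-treated lungs, 10.3, 4.70 and 10.5 TPM in anti-PD1-treated lungs and 7.18, 3.59 and 7.81 TPM in PBS-treated lungs. The nanocapsule values were close together, with a coefficient of variation of 8.23%, against 38.8% in anti-PD1-treated lungs and 36.8% in PBS-treated lungs, where replicate 2 of each group was low. The log2 difference was -0.70 (SE 0.31, 95% interval -1.39 to -0.02, limma adjusted p = 0.171) for nanocapsule against anti-PD1. It was -0.32 (SE 0.31, limma adjusted p = 0.732) for nanocapsule against PBS and 0.39 (SE 0.31, limma adjusted p = 0.552) for anti-PD1 against PBS. With single libraries left out, the nanocapsule against anti-PD1 difference ranged from -1.04 to -0.53. That for nanocapsule against PBS ranged from -0.61 (without PBS 2) to -0.14 (without PBS 3). That for anti-PD1 against PBS ranged from 0.09 (without PBS 2) to 0.72 (without anti-PD1 2). Epithelial and carcinoma genes had a summed level of 3159 to 11465 TPM in nanocapsule-treated lungs, 4788 to 12637 TPM in anti-PD1-treated lungs and 3009 to 7759 TPM in PBS-treated lungs. Most of these sums was Scgb1a1 and Sftpc, genes of airway and alveolar epithelium, which averaged 4563 and 1651 TPM in nanocapsule-treated lungs. Krt19 averaged 48.9 TPM there, so the sums do not show carcinoma content. For nanocapsule against anti-PD1, 6 of 6 tested genes of the list were lower, with a median of -0.53, beside 70.8% of all genes. It was 5 of 6 with median-of-ratios scaling, and 4 of 6 with a median of -0.13 without the 3 libraries high in thymocyte genes. The part of these genes in the Fscn1 values was not tested.

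Further genes of each subset were taken from lists and read in the same fit, and limma called none of them in any comparison. Of the list of migratory cells, 15 of 18 genes were tested, and 15 of 15 were lower in nanocapsule-treated lungs than in anti-PD1-treated lungs. Their median log2 difference was -0.61, beside 70.8% lower and a median of -0.17 over all genes. At an unadjusted p under 0.05, 9 of the 15 were counted, all lower, where the share over all genes was 21.0%. The shift was not particular to this list. In the same comparison the medians were -1.03 for T cell, -0.98 for B cell and -0.65 for NK cell genes. They were -1.19 for endothelial and -0.68 for alveolar macrophage genes, while neutrophil genes (0.70) and monocyte and interstitial macrophage genes (0.25) went the other way. Cd83, a surface marker of mature dendritic cells and B cells, was at 13.1, 10.1 and 14.4 TPM in nanocapsule-treated lungs and 37.0, 19.6 and 24.98 TPM in anti-PD1-treated lungs (log2 difference -1.03, SE 0.26, limma adjusted p = 0.0757). Cd274, the gene of PD-L1, was at 18.0, 18.2 and 30.7 TPM and at 43.9, 44.6 and 34.7 TPM in these groups (log2 difference -0.89, SE 0.22, limma adjusted p = 0.0736). For both genes, named for their small p, the groups did not overlap. Nanocapsule-treated lungs lay wholly below anti-PD1-treated lungs in 9 of the 15 tested genes of the list and in 24.6% of all genes. Against PBS-treated lungs, 14 of 15 migratory genes were lower in nanocapsule-treated lungs, with a median of -0.30, beside 71.2% lower and -0.11 over all genes. In that comparison Cd83 differed by -1.16 on the log2 scale (SE 0.26, limma adjusted p = 0.338). For anti-PD1 against PBS, 10 of 15 migratory genes were higher, with a median of 0.11, beside 56.9% higher and 0.04 over all genes. Without the 3 libraries high in thymocyte genes, 15 of 15 were lower for nanocapsule against anti-PD1 with a median of -0.42, 12 of 15 were lower for nanocapsule against PBS with a median of -0.12, and 12 of 15 were higher for anti-PD1 against PBS with a median of 0.25. With median-of-ratios scaling, 13 of 15 were lower for nanocapsule against anti-PD1 (median -0.46) and 12 of 15 for nanocapsule against PBS (median -0.18). That scaling left 9 of 15 higher for anti-PD1 against PBS (median 0.07). The anti-PD1 against PBS median was 0.36 without PBS 3.

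Plasmacytoid genes were lower by value in nanocapsule-treated lungs, 13 of 13 tested against PBS with a median of -0.36, and 11 of 13 against anti-PD1 with a median of -0.43. Over all genes, 71.2% and 70.8% were lower in these comparisons, with medians of -0.11 and -0.17. The lower values were not particular to plasmacytoid genes. Against PBS the medians were -0.89 for B cell, -0.59 for T cell and -0.39 for NK cell genes. Those of neutrophil (0.18) and endothelial genes (0.07) lay above 0. Against PBS the plasmacytoid median was -0.09 without PBS 3, and without the 3 libraries high in thymocyte genes 10 of 13 were lower with a median of -0.23. With median-of-ratios scaling, 11 of 13 were lower against PBS (median -0.26) and 10 of 13 against anti-PD1 (median -0.29). Spib, a transcription factor of plasmacytoid cells and B cells, was at 17.5, 10.6 and 13.1 TPM in nanocapsule-treated lungs and 31.9, 18.2 and 34.9 TPM in PBS-treated lungs (log2 difference -0.97, SE 0.29, limma adjusted p = 0.365). Klk1, a kallikrein gene, was at 4.06, 3.83 and 4.06 TPM and at 7.40, 5.37 and 13.2 TPM in these groups (log2 difference -0.87, SE 0.25, limma adjusted p = 0.365). Tlr9, the endosomal sensor of unmethylated DNA, was at 4.19, 2.73 and 4.64 TPM and at 6.34, 5.07 and 6.50 TPM (log2 difference -0.54, SE 0.18, limma adjusted p = 0.399). In each of these 3 genes, named for their small p in this comparison, nanocapsule-treated lungs lay below PBS-treated lungs. So they did in 4 of the 13 tested genes of the list and in 11.9% of all genes. For anti-PD1 against PBS, 6 of 13 plasmacytoid genes were higher and 7 lower, with a median of -0.04, which was 0.19 without anti-PD1 2. Over all genes, 56.9% were higher and 43.1% lower in that comparison, with a median of 0.04.

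Of 11 tested type 1 genes, 10 were lower in nanocapsule-treated lungs than in anti-PD1-treated lungs with a median of -0.24, 7 were lower against PBS with a median of -0.02, and 9 were higher for anti-PD1 against PBS with a median of 0.23. Over all genes, 70.8% were lower, 71.2% lower and 56.9% higher in this order, with medians of -0.17, -0.11 and 0.04. With median-of-ratios scaling the type 1 medians were -0.09, 0.05 and 0.21 in this order, so the sign for nanocapsule against PBS turned. Irf8, the transcription factor of type 1 and plasmacytoid cells, was at 52.8, 48.5 and 60.5 TPM in nanocapsule-treated lungs, 78.4, 70.1 and 68.0 TPM in anti-PD1-treated lungs and 73.3, 53.1 and 83.0 TPM in PBS-treated lungs. Its nanocapsule lungs lay below anti-PD1-treated lungs (log2 difference -0.42, SE 0.16, limma adjusted p = 0.133) and overlapped PBS-treated lungs.

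Of 13 tested type 2 genes, 7 were lower in nanocapsule-treated lungs than in anti-PD1-treated lungs with a median of -0.08, 7 were lower against PBS with a median of 0.00, and 9 were lower for anti-PD1 against PBS with a median of -0.05. Over all genes, 70.8%, 71.2% and 43.1% were lower in this order, with medians of -0.17, -0.11 and 0.04. With median-of-ratios scaling the type 2 medians were 0.06, 0.11 and -0.10 in this order, so the sign for nanocapsule against anti-PD1 turned. Irf4, a transcription factor that type 2 cells need for migration and that B cells and plasma cells also express, was at 3.95, 3.15 and 4.18 TPM in nanocapsule-treated lungs, 5.36, 4.26 and 4.44 TPM in anti-PD1-treated lungs and 6.61, 6.68 and 9.95 TPM in PBS-treated lungs. The 3 groups of Irf4 did not overlap, and its log2 difference was -0.86 (SE 0.18, limma adjusted p = 0.320) for nanocapsule against PBS and -0.60 (SE 0.18, limma adjusted p = 0.213) for anti-PD1 against PBS. Cd24a, which neutrophil precursors and B cells also express, was at 470, 478 and 522 TPM in nanocapsule-treated lungs and 350.2, 336 and 355 TPM in anti-PD1-treated lungs (log2 difference 0.49, SE 0.10, limma adjusted p = 0.0567), with no overlap. Esam, an adhesion molecule shared with endothelial cells, was at 8.75, 4.05 and 5.11 TPM and at 16, 9.10 and 17.3 TPM in these groups (log2 difference -1.13, SE 0.38, limma adjusted p = 0.110).

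Among 10 genes of the conventional lineage as a whole, 7 were lower in nanocapsule-treated lungs than in anti-PD1-treated lungs with a median of -0.57, 10 were lower against PBS with a median of -0.26, and 5 were higher and 5 lower for anti-PD1 against PBS with a median of -0.05. Over all genes, 70.8%, 71.2% and 43.1% were lower in this order, with medians of -0.17, -0.11 and 0.04. The 7 of 10 is thus near the share of all genes. With median-of-ratios scaling, 7 of the 10 lineage genes were lower for nanocapsule against PBS (median -0.15). Without the 3 libraries high in thymocyte genes the medians were -0.38, -0.04 and 0.26 in the same order of comparisons, and for anti-PD1 against PBS, where 7 of 10 were then higher, the median was 0.18 without PBS 3 alone. Adam19, which encodes a membrane metalloprotease, had the smallest p of this list for nanocapsule against anti-PD1 and was higher, at 79.0, 78.1 and 97.2 TPM in nanocapsule-treated lungs, 65.0, 64.8 and 59.3 TPM in anti-PD1-treated lungs and 82.4, 99.8 and 73.6 TPM in PBS-treated lungs (log2 difference 0.42, SE 0.13, limma adjusted p = 0.0955). Its anti-PD1-treated lungs lay below both other groups. Itgax, the gene of CD11c, which alveolar macrophages also express, was at 62.3, 57.0 and 97.4 TPM in nanocapsule-treated lungs, 107, 129.6 and 106 TPM in anti-PD1-treated lungs and 106, 59.4 and 89.9 TPM in PBS-treated lungs. Alveolar macrophage genes were lower in 10 of 10 members for nanocapsule against anti-PD1, with a summed level of 1544 to 2526 TPM in nanocapsule-treated lungs, 2746 to 3337 TPM in anti-PD1-treated lungs and 1699.5 to 2677 TPM in PBS-treated lungs, and their part in the Itgax values was not tested. Of 6 tested ligands and growth factors, 6 were lower in nanocapsule-treated lungs against either other group. The medians were -0.67 against anti-PD1 and -0.36 against PBS, and 5 of 6 were lower against either with median-of-ratios scaling. Without the 3 libraries high in thymocyte genes, 6 of 6 were lower against anti-PD1 (median -0.61) and 4 of 6 against PBS (median -0.26). For anti-PD1 against PBS, 4 of 6 were higher, with a median of 0.18. The ligands include Lta, a cytokine of lymphoid tissue, at 1.07, 0.471 and 0.377 TPM in nanocapsule-treated lungs. Lta was at 6.18, 1.57 and 2.27 TPM in anti-PD1-treated lungs and 2.61, 1.11 and 4.41 TPM in PBS-treated lungs.

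**Figure D3:**
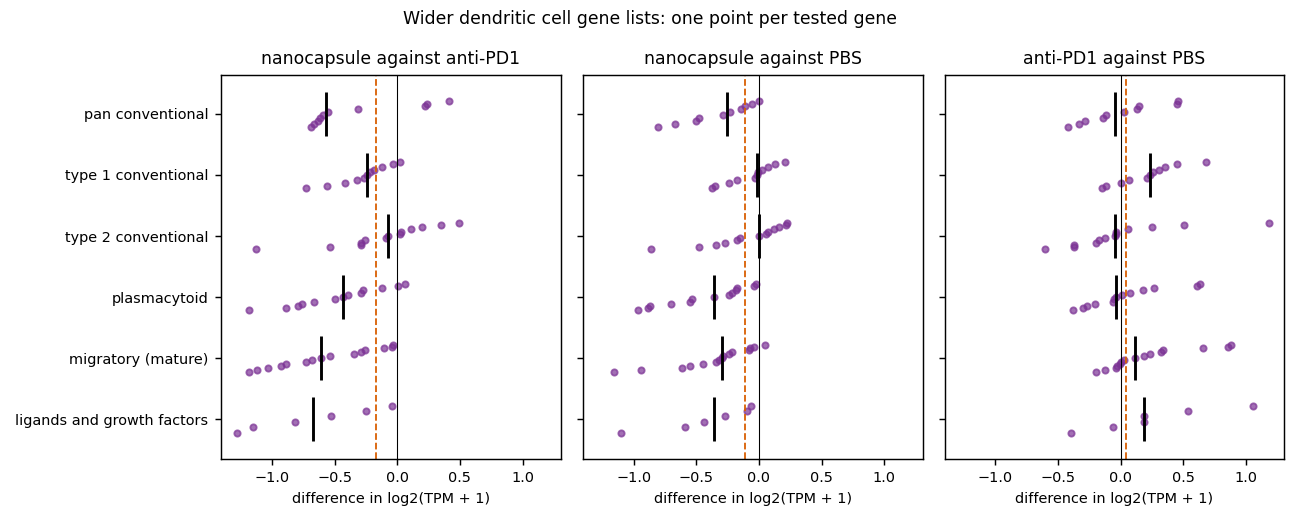
Differences in log2(TPM + 1) of the tested genes of 6 wider lists, with 1 point for each gene, a black bar at the median of the list and a dashed line at the median over all tested genes. In the panel of nanocapsule against anti-PD1, every migratory gene lies to the left of 0, with a median of -0.61 (13 of 15 with median-of-ratios scaling), and the type 2 list lies around its median of -0.08, which was 0.06 with that scaling.

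**Figure D4:**
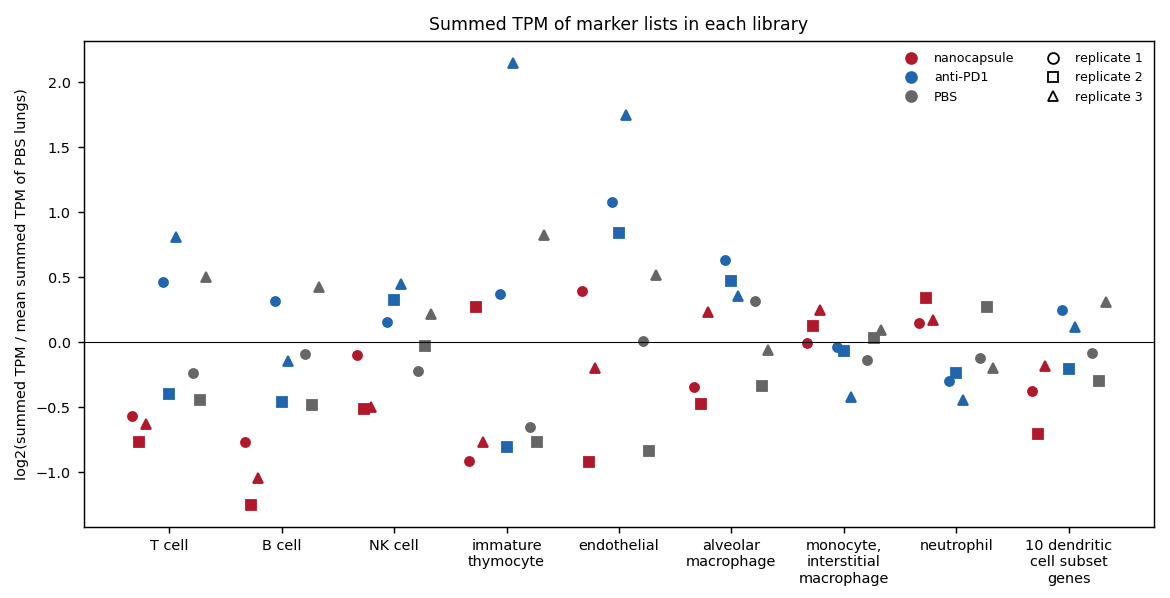
Summed TPM of marker lists in each library, as log2 of the ratio to the mean sum of PBS-treated lungs, with the 10 dendritic cell subset genes at the right. Colours show the group and markers the replicate. T cell and B cell sums of nanocapsule-treated lungs lie below 0, as do those of PBS 1, PBS 2 and anti-PD1 2 and the B cell sum of anti-PD1 3. Endothelial sums of anti-PD1-treated lungs lie above 0, and anti-PD1 3 is highest in thymocyte genes.

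The plot of marker sums places the 10 genes beside other cells of the lung. Summed over the 10 genes, the level was 72.5, 57.7 and 82.9 TPM in nanocapsule-treated lungs, 112, 81.3 and 102 TPM in anti-PD1-treated lungs and 88.9, 76.4 and 116 TPM in PBS-treated lungs. Ccr7 made up 49.2% to 64.6% of these sums. Without Ccr7 they were 29.7, 28.8 and 37.8 TPM in nanocapsule-treated lungs and 39.5, 41.3 and 44.2 TPM in anti-PD1-treated lungs. In PBS-treated lungs the sums without Ccr7 were 36.9, 27.1 and 41.4 TPM, which overlapped both other groups. NK cell genes were lower in 6 of 6 tested members in nanocapsule-treated lungs against either other group. With median-of-ratios scaling it was 5 of 6 against PBS. Over all genes, 70.8% were lower against anti-PD1 and 71.2% against PBS. The summed level of NK cell genes was 37.1 to 49.5 TPM in nanocapsule-treated lungs and 59.0 to 72.2 TPM in anti-PD1-treated lungs. In PBS-treated lungs it was 45.5 to 61.6 TPM, and Klra8 of this list was at 0 in all 9 libraries. Neutrophil genes were higher in 8 of 8 members in nanocapsule-treated lungs than in anti-PD1-treated lungs, with a median log2 difference of 0.70. Over all genes, 29.2% were higher in that comparison. TPM have the same total in each library, and the part of the neutrophil share in the other values was not tested. With median-of-ratios scaling, which brought the median over all genes from -0.17 to -0.03 for nanocapsule against anti-PD1, 8 of 9 tested members were lower and their median was -0.41. For nanocapsule against PBS that scaling left 6 of 9 lower, with a median of -0.22.

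The 10 genes did not follow one order across the libraries. Of the 9 libraries, nanocapsule 2 had the lowest value of 6 genes (Clec9a, Zbtb46, Itgae, Cd209a, Siglech and Ccr7), anti-PD1 3 the highest of 4 (Clec9a, Zbtb46, Itgae and Fscn1), anti-PD1 2 the highest of 3 (Xcr1, Flt3 and Cd209a) and PBS 3 the highest of 2 (Siglech and Ccr7). Likeness was measured as the mean absolute difference in rank over the 9 libraries, where 0 is the same order. The pairs most alike were Clec9a with Itgae and Fscn1 with Itgae, both at 0.667, followed by Ccr7 with Siglech, Clec9a with Xcr1, Clec9a with Zbtb46 and Itgae with Zbtb46, at 1.11. Batf3 was least like the others, with values of 2.89 to 4.44.

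The same measure was applied to 11618 other tested genes, a number at which close matches in 9 libraries are easily found, so these matches are given as a description. Clec9a had the same order as Ube2d1, Zbtb46 as Pdgfb, Itgae as Ube2e1 and Cfdp1, Ccr7 as Sept6 and Mfsd4, and Fscn1 as Drg1 and Rnf157, all at 0. Siglech was nearest to Ms4a1, the B cell gene of CD20, and Zhx2, at 0.222 each. Cd209a was nearest to Grk5 at 0.222 and Ly75, the gene of the dendritic cell endocytic receptor DEC-205, at 0.444. Flt3 was nearest to Fam118b at 0.222 and Dse at 0.444, and Batf3 to Fam89b at 0.222 and Cox7a1 at 0.667. The second gene of Clec9a was Psma3 and that of Zbtb46 mt-Nd4l, both at 0.222.

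By mean level over the 9 libraries, the order was Ccr7 at 51.4 TPM, Batf3 at 11.05, Fscn1 at 6.42, Cd209a at 5.35, Siglech at 4.57, Itgae at 3.15, Flt3 at 2.70, Clec9a at 1.36, Zbtb46 at 1.25 and Xcr1 at 0.449 TPM. Ccr7 and Batf3 were the 1 pair of neighbours in this order whose ranges over the libraries did not overlap. Ccr7 stood at the percentile 82.9 among the tested genes by mean level and Zbtb46 at 7.14, and Clec9a, at 8.42, also lay near the lower limit of the tested range.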

How the data were processed

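Poly(A) RNA from 9 lungs was sequenced. The deposited values are gene-level TPM, corrected by the authors for transcript length, and every column has the same total. Salmon appears in the name of the deposited table, and the build GRCm38 in the submitters' processing notes. Versions and filters are not given in the sources used here. Depth is unknown because TPM keep no counts, and no count test was applied. All columns were used.

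A gene entered the tests if 3 or more of the 9 samples reached 1 TPM. The model was limma 3.58.1 (R 4.3.3), fitted to log2(TPM + 1) for all 3 groups at once, with a variance trend. Tests were two-sided with Benjamini-Hochberg adjustment over all 13248 tested genes, with calls at adjusted p below 0.05. Fold changes are on the log2(TPM + 1) scale, which understates changes of low genes. The members and lists were chosen with earlier results of these data known, so their direction is not independent evidence. Jaml of the lineage list was matched by gene ID as Amica1. From each list, up to 3 genes with the smallest p and a mean of at least 1 TPM could be named for each comparison. Positions are from GENCODE M21 on GRCm38. Promoter sequences were found for 8 of the 10 genes. The fit was tested on simulated data. Pseudocount, filters, scaling, variance model, replicate block and the omission of each library were varied.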

Additional observations from a re-analysis of the deposited data

How the results depend on the processing

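The number of called genes over the whole table, 14 for nanocapsule against anti-PD1, 1 for nanocapsule against PBS and 1 for anti-PD1 against PBS, depended on the settings. In that order of comparisons, it was 15, 2 and 0 with a pseudocount of 0.1, 3, 0 and 1 without a filter, 190, 3 and 2 with at least 1 TPM in all 9 samples, 21, 4 and 0 with median-of-ratios scaling, 2, 2 and 0 without a variance trend, 476, 1 and 1 with only the 2 groups compared, and 1, 0 and 1 without the library highest in thymocyte genes in each group. Without single libraries it ranged from 0 to 960, from 0 to 4 and from 0 to 3. For nanocapsule against anti-PD1 it was 960 without PBS 2, 194 without PBS 3, 5 without nanocapsule 1, 1 without nanocapsule 3, 1 without anti-PD1 3 and 0 without nanocapsule 2, anti-PD1 1 or anti-PD1 2. The cause was not tested.

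The replicate numbers are not said to pair the lungs, and deviations from the group means correlated above 0.1 in 3 of 9 same-numbered pairs (from -0.182 to 0.279). Pairs with different numbers ranged from -0.258 to 0.225, and some of them also lay above 0.1, so these values do not establish a pairing. With the replicate number as a block, limma called 1095 genes for nanocapsule against anti-PD1, 5 for nanocapsule against PBS and 1 for anti-PD1 against PBS. Itgae, at a log2 difference of -0.81, was then called for nanocapsule against anti-PD1 (limma adjusted p = 0.0366), the 1 call among the members under any alternative.

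Signs near 0 were unstable. With median-of-ratios scaling, Clec9a was at 0.05 and Flt3 at 0.06 for nanocapsule against PBS. Without the 3 libraries high in thymocyte genes, Clec9a was at 0.35, Flt3 at 0.11, Zbtb46 at 0.08 and Itgae at 0.01 in that comparison, and for anti-PD1 against PBS Siglech was at 0.09 and Ccr7 at 0.09. With single libraries left out, the log2 difference for anti-PD1 against PBS ranged from -0.18 to 0.35 for Cd209a, from -0.48 to 0.02 for Siglech and from -0.26 to 0.16 for Ccr7, and for nanocapsule against PBS from -0.17 to 0.20 for Clec9a, from -0.15 to 0.05 for Flt3 and from -0.17 to 0.03 for Zbtb46. For nanocapsule against anti-PD1, no sign of the 9 tested members changed under any alternative computed.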

Other observations

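Of the 16 genes of the plasmacytoid list, 6 had their highest value of the 9 libraries in PBS 3 (Tcf4, Spib, Klk1, Pacsin1, Irf7 and Tlr9), as did Siglech, and 5 had it in anti-PD1 3 (Bst2, Ccr9, Ly6d, Cox6a2 and Ptprs). The other 5 peaked in nanocapsule 3 (Runx2, Tlr7 and Cyp26b1), nanocapsule 2 (Atp2a1) and anti-PD1 1 (Cd300c). In PBS 3, Pacsin1 was at 6.13 TPM and Irf7 at 148 TPM. These libraries and genes were singled out after their values were seen. Ccr9, a chemokine receptor of plasmacytoid cells that thymocytes also carry, peaked in anti-PD1 3. It was at 24.3 TPM in anti-PD1 3, 9.93 TPM in PBS 3 and 4.49 TPM in nanocapsule 2, the libraries with the highest Rag1 of each group, and at 1.25 to 4.17 TPM in the other libraries. Dntt, the polymerase that adds bases to antigen receptor junctions, was at 46.8, 14.1 and 12.1 TPM in these 3 libraries.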
